A study of Mus musculus with 11 samples.

Results

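Denervated tibialis anterior muscle of Runx1 mutant mice was compared with denervated muscle of control mice. This comparison rests on 6 of the 11 Affymetrix expression arrays of the study, 3 denervated mutant and 3 denervated control, and on the 45037 probe sets that are not Affymetrix controls. Of these, 26170 were bright enough to be tested, and they represent 12214 genes. The tibialis anterior is a fast muscle of the lower leg. Control mice carried the genotype runx1f/-, a floxed allele of Runx1 over a null allele, so the control muscle also had 1 functional copy of the gene at most. Mutant mice were runx1f/-; MCK::cre, in which the promoter of muscle creatine kinase drives Cre recombinase in differentiated muscle fibres, while other cells of the muscle are not targeted. The sample titles give 3 days of denervation for all 6 muscles. For denervated control 3 the note on treatment says 5 days instead, and results that rest on this array are given with and without it. The other 5 arrays were of innervated muscle, 3 from control and 2 from mutant mice, and were set beside the denervated ones. Strain, sex and age are not in the labels. They do not state that the replicates came from separate mice either, so p-values measure the spread between these samples, which may be technical.

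RUNX1 is a transcription factor that binds DNA through its Runt domain together with its partner CBF-beta and can activate or repress genes. It is best known from blood stem cells and leukaemia. Innervated muscle fibres contain little of it, and loss of the nerve raises it strongly. Denervated fibres lose mass, spread acetylcholine receptors over their surface and re-express genes of developing muscle, and the comparison asks which of the genes of denervated muscle have another level when Runx1 is targeted in the fibres. In whole muscle, a smaller number of cells of a type and less RNA per cell cannot be told apart.

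All 11 arrays had been scaled to 1 trimmed mean, 2500.02, and their median signals lay between 442.5 and 604.6. The trp control probe sets, which have no target in mouse RNA, gave signals from 13.8 to 440, and group means in that range are marked as such below. On the first principal component of the 6 denervated arrays, which held 34.5% of the variance, the mutant arrays lay at 29.3, 32.7 and 34.3. Denervated control 1 and 2 lay at -50.0 and -42.5, and denervated control 3 lay between the groups at -3.84. Markers of muscle fibres had the same summed level in both genotypes within the spread, 119.4 to 122.9 in control and 119.6 to 121.7 in mutant muscle (sum of log2 signals of 7 genes, exact permutation p = 1). Hybridisation controls added to the samples (bioB, bioC and bioD) were 0.34 log2 units higher on the mutant arrays (exact two-sided permutation p = 0.1, the smallest that 3 against 3 arrays allow), and the effect of rescaling to them is given with the counts.

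Runx1 itself was bright in denervated muscle of both genotypes. The brightest of its 6 probe sets read 23499, 25898 and 24353 in control and 20403, 20449 and 23185 in mutant muscle. All mutant arrays were below all control arrays, but the log2 difference of -0.21 ± 0.30 (SE) did not pass (limma adjusted p = 0.884, exact permutation p = 0.1). The largest difference among the probe sets of Runx1 was -1.07 log2 units, with signals of 3849, 3858 and 2619 in control and 1209, 2217 and 1550.0 in mutant muscle. Another dim probe set differed by -0.82, from 2980, 3049 and 1574 to 1484, 1493 and 1145. These arrays do not overlap either (exact permutation p = 0.1 for both), and the 3 others differed by -0.23, -0.05 and 0.01 with overlapping arrays. The labels do not say which part of Runx1 Cre removes, nor do the files place the probes, so these levels do not check the deletion. Only the mutant mice carried Cre, so an effect of Cre and one of losing Runx1 cannot be told apart.

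In denervated muscle 267 genes differed between the genotypes, 2.19% of the genes tested (limma, Benjamini-Hochberg adjusted p below 0.05). Of these, 139 were lower (1.14%) and 128 higher (1.05%) in the mutant. Their log2 differences ranged in size from 0.47 to 4.40 among lower and from 0.54 to 3.16 among higher genes, and for every one of the 267 the 3 mutant arrays lay outside the range of the 3 control arrays, as they did for 23.1% of all genes. The median over all genes was 0.01. Counted as probe sets, 478 passed (1.83%), 211 higher (0.806%) and 267 lower (1.02%). The balance of higher and lower calls depends on the scaling: 44.1% of the called probe sets were higher with the deposited scaling, 56.5% after scaling to the median and 5.71% after centring on the hybridisation controls, which moved the median of all genes to 0.11 and -0.33 log2 units. A list median smaller than these shifts can change sign with the scaling. Each of the 267 genes kept its direction under every alternative that tested it, while the number still called ranged from 123 to 267. Without denervated control 3, 148 genes were higher and 113 lower. Across the arrays, 57 of the 139 lower and 50 of the 128 higher genes passed whichever of the 6 denervated arrays was left out, and the number of genes called fell to 126 without denervated control 1.

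**Figure D1:**
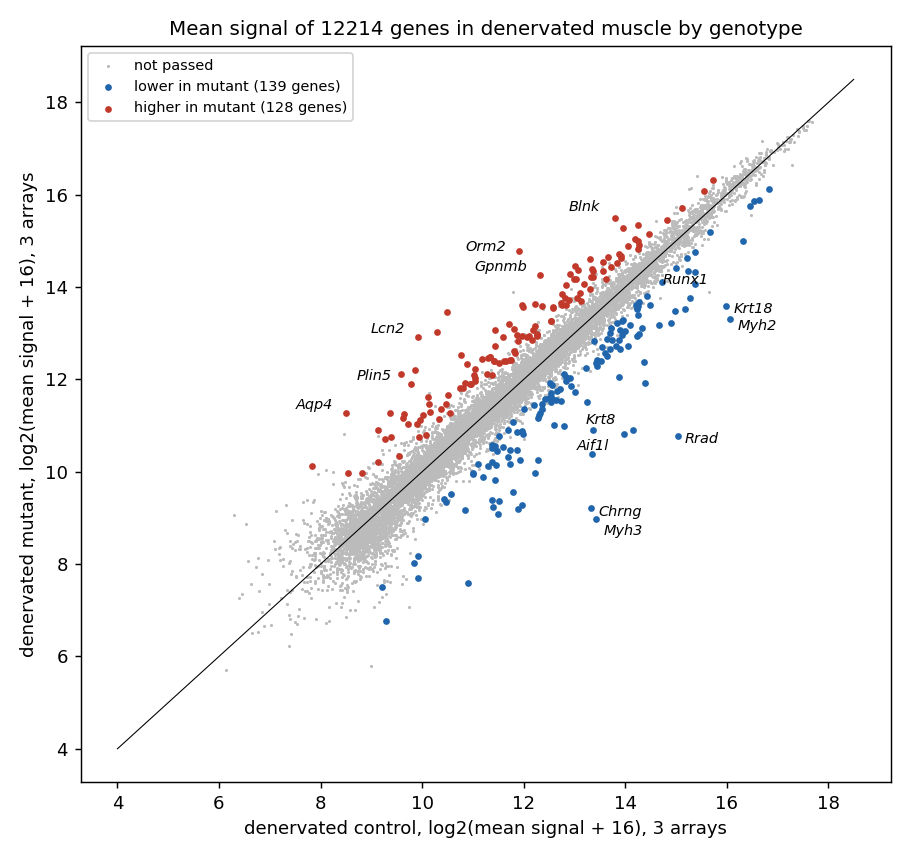
Mean signal of each of the 12214 genes in denervated mutant muscle (vertical axis) against denervated control muscle (horizontal axis), as log2(mean of 3 arrays + 16). Blue points are the 139 genes lower and red points the 128 genes higher in the mutant (limma adjusted p below 0.05), grey points did not pass, and the line marks equal signals. Runx1 lies beside the line, while Myh3, Chrng and Rrad lie about 4 log2 units below it.

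RUNX proteins bind the core sequence TGTGGT or TGCGGT, and the promoters of the called genes were searched for it on both strands. The window was the 250 bases before the start of the gene in the RefSeq promoter table (build GRCm38.p6), which held 9822 of the 12214 genes. The core was present in 17.3% of the promoters of lower genes (19 of 110), in 14.6% of those of higher genes (14 of 96) and in 17.2% of all promoters. The shares of called genes are thus close to that of all genes. Of the 15 largest falls described below, 11 had a promoter in the table and 2 of these held the core, and of the 15 largest rises 12 had a promoter and 2 held it. These 4 promoters, from genes that moved in both directions, are shown 5′ to 3′ on the strand of the gene, with the core in capitals (on the other strand it reads ACCACA or ACCGCA). Myh3 lies at chr11:67078050-67078299 (+ strand), Kcnk5 at chr14:20181783-20182032 (- strand), Gpnmb at chr6:49036268-49036517 (+ strand) and Pcp4l1 at chr1:171196269-171196518 (- strand).
Myh3: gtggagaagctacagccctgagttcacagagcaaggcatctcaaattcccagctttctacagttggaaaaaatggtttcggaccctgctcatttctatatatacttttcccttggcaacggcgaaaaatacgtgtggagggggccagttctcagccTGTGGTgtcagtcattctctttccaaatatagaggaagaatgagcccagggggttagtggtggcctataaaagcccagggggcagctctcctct
Kcnk5: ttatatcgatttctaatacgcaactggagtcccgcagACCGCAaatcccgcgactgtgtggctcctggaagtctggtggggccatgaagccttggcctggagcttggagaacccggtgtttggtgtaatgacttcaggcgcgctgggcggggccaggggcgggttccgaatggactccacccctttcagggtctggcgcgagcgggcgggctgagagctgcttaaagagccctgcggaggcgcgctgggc
Gpnmb: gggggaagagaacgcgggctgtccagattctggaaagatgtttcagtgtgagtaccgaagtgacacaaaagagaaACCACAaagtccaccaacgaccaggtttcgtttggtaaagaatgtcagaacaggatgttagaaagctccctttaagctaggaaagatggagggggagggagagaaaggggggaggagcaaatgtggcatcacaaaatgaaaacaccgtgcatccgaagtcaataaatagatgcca
Pcp4l1: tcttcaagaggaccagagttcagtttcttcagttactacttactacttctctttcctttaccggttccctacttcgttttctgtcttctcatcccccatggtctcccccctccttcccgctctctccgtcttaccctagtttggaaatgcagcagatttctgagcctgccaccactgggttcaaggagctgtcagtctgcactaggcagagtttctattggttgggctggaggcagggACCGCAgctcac
The first base of the core in Myh3 lies 94 bases before the start of the gene. In Kcnk5 it lies 213, in Gpnmb 175 and in Pcp4l1 12 bases before the start. A match of these letters is a description and does not show binding. The E-box CAGCTG, which myogenic factors bind and which was chosen after values were seen, was present in 8.18% of the promoters of lower genes, 16.7% of those of higher genes and 12% of all. The promoter of Chrng, printed here because it holds 2 of these E-boxes (in capitals) and no RUNX core, lies at chr1:87205561-87205810 (+ strand).
Chrng: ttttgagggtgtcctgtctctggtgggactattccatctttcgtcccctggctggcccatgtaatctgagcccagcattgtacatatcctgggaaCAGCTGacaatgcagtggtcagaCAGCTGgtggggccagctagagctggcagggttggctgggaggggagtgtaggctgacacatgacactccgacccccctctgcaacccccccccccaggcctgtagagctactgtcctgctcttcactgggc

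The largest falls included genes of the immature neuromuscular synapse and of developing muscle. The 15 largest falls and rises were picked among called genes whose arrays do not overlap, so the separation of their arrays was fixed by the choice. Chrng, the fetal gamma subunit of the acetylcholine receptor, read 10267, 9627 and 10959 in denervated control and 687, 546 and 489.9 in denervated mutant muscle. The groups lie more than an order of magnitude apart and the mutant arrays are little above the trp control range. This is a 17.6-fold lower level (log2 difference -4.14 ± 0.30 SE, limma adjusted p = 2.21e-05). Its other probe set differed by -6.46 in the same direction, with a mutant mean of 55.1 in the trp range. Beside these, innervated muscle read 72.9, 74.1 and 71 in control and 89.4 and 35.7 in mutant, all within the trp range. Among the receptor subunits, 1 of 6 tested was lower and none higher (16.7% against 2.19% of all genes), with a median of -0.60. Chrnd, the delta subunit, read 5703, 5779.9 and 4647 against 1926, 2829.6 and 2981, with no overlap, and did not pass (log2 difference -1.07, limma adjusted p = 0.197). For Chrne, the subunit of the mature receptor, the difference was -0.99 (limma adjusted p = 0.139). Chrna1, the alpha subunit that binds acetylcholine, and Chrnb1 differed by -0.21 and -0.02 with overlapping arrays. Chrna9, a subunit of another type of receptor, read 3344, 4030.1 and 3276 against 17040, 12089 and 16274, with all mutant arrays above all control arrays, a difference of 2.08 that did not pass (limma adjusted p = 0.0859).

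Several myosin and troponin genes of developing, oxidative and slow fibres were lower as well. Myh3, the embryonic myosin heavy chain, read 15508, 10189 and 7251 in control and 545, 491 and 430.3 in mutant muscle. The control arrays spread widely, with denervated control 3 the lowest, while the mutant arrays lie close together. The difference was 20.9-fold (log2 -4.38 ± 0.31 SE, limma adjusted p = 1.74e-05). Denervated mutant arrays lay at the lower end of the innervated arrays or below them, 658, 895 and 1438 in control and 535 and 800.3 in mutant muscle. Myh2, the fast oxidative IIa myosin, read 77796, 48761 and 79595 against 13960, 7565 and 8847. The ranges are well separated, and innervated muscle of both genotypes was brighter, at 177920, 158290 and 184560 in control and 91809 and 197370 in mutant arrays. The denervated difference was 6.85-fold (log2 -2.78 ± 0.28 SE, limma adjusted p = 0.000262).

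Tnni1 and Tnnt1, the slow skeletal troponins I and T, followed the same direction. Tnni1 read 4208, 2023 and 2445 against 855, 476 and 602, a 4.31-fold difference (limma adjusted p = 0.00673), and Tnnt1 4112, 2116 and 3885 against 1313, 1041 and 1065, a 2.83-fold difference (limma adjusted p = 0.00702). No array of one genotype reached the range of the other for either gene, as for every called gene. Of the 14 developmental and cardiac sarcomere genes, 4 were lower and none higher (Myh3, Tnni1, Lmod2 and Myh10), 28.6% against 2.19% of all genes. The median was -0.57 and stayed between -0.47 and -0.91 under the scaling alternatives. Without denervated control 3, 3 were lower, and Myh10 lost its call whichever denervated array was left out. Of the 13 slow-fibre genes, 3 were lower (Tnni1, Tnnt1 and Fhl1), 23.1% against 2.19% of all genes, with a median of -0.40. Fhl1 differed by -0.69 log2 units, and another of its probe sets by -2.81 (limma adjusted p = 0.000366). Among 16 fast-fibre contractile genes Myh2 was the one that passed (6.25% against 2.19% of all genes), and the median was -0.05, which turned to 0.05 with scaling to the median. Myh4, the IIb myosin that dominates this muscle, read 205200, 178630 and 143150 in control and 178410, 149950 and 186840 in mutant muscle with overlapping ranges, and its log2 difference was -0.02 ± 0.15 (limma adjusted p = 0.976).

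**Figure D2:**
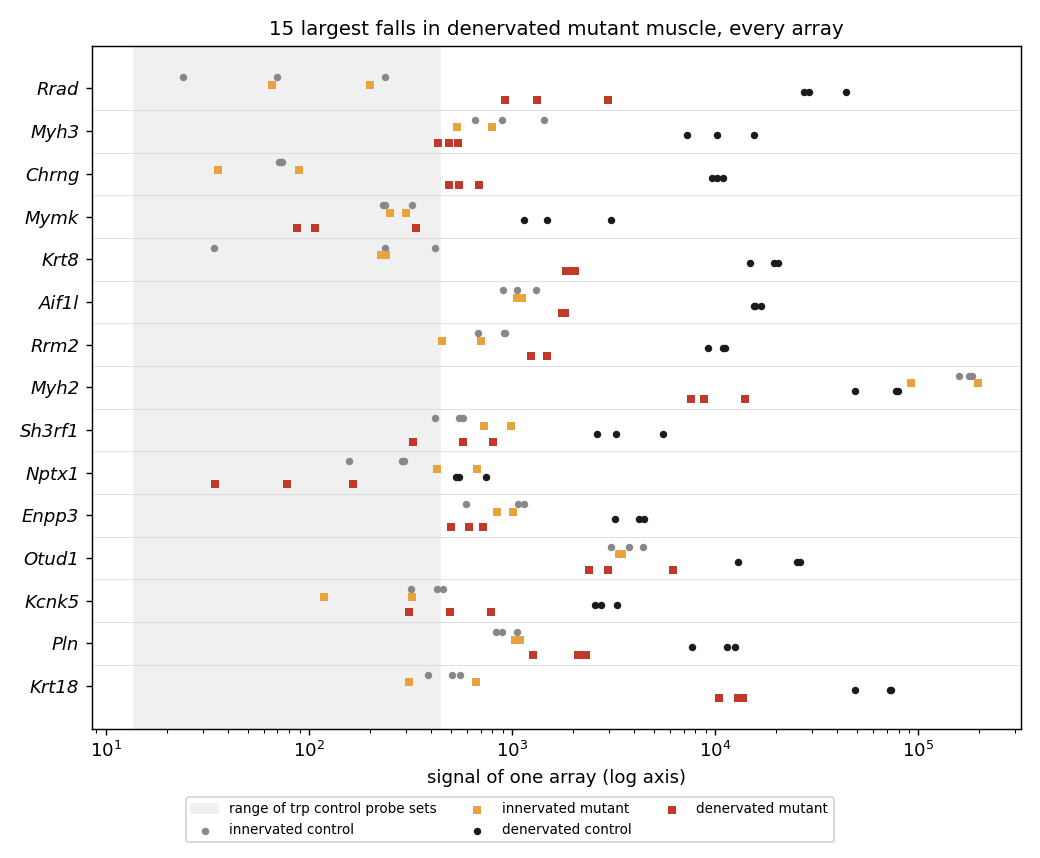
Signal of every array (horizontal axis, log scale) for the 15 genes with the largest falls in denervated mutant against denervated control muscle. Circles are control and squares mutant arrays, black and red denervated, grey and orange innervated, and the grey band spans the signals of the trp controls (13.8 to 440). For each gene the 3 red squares lie left of the 3 black circles, which the choice of genes required. For Nptx1 and Mymk all 3 denervated mutant arrays lie inside the band.

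Structural genes of the Z-disc and thin filament were the list with the most lower members. Of 42 tested genes of the Z-disc, M-line and sarcomeric cytoskeleton, 9 were lower and none higher, 21.4% against 1.14% of all genes, and 7 were lower without denervated control 3. Lmod3, a leiomodin that nucleates actin for thin filaments, read 9885, 8968 and 10373 in control and 2602, 2586 and 3587 in mutant muscle, 3.35-fold lower (log2 -1.74 ± 0.15 SE, limma adjusted p = 7.68e-05). Synpo2l, a synaptopodin-like protein of the Z-disc, read 44047, 37826 and 37290 against 15192, 13209 and 13566, 2.83-fold lower (limma adjusted p = 5.6e-05). Each genotype was tight in both genes. Lmod2, the second leiomodin of the list, was 2.46-fold lower (limma adjusted p = 0.00245). The other 6 were Xirp1, Kbtbd13, Synpo2, Pdlim3, Myot and Smyd1, with log2 differences from -1.72 to -0.59. Csrp3, a muscle LIM protein, had a difference of -1.83 that did not pass (limma adjusted p = 0.31). Over the whole list the median was -0.12, and titin (Ttn, -0.04), nebulin (Neb, -0.07) and desmin (Des, -0.15) were near the median of all genes.

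Keratins 8 and 18, partner intermediate filament proteins of simple epithelia, were lower together. Krt8 read 20327, 14881 and 19436 in control against 1858, 1844 and 2039 in mutant muscle, and Krt18 read 73720, 72418 and 49029 against 10392, 13750 and 12930. The arrays of a genotype agree closely in both, apart from denervated control 3, the lowest control array of Krt18. Krt8 was 9.37-fold lower (log2 -3.23 ± 0.55 SE, limma adjusted p = 0.00789) and Krt18 5.21-fold lower (log2 -2.38 ± 0.26 SE, limma adjusted p = 0.000367). Innervated arrays read at most 662 for Krt18 and 419 for Krt8, so both keratins were still above the innervated level in denervated mutant muscle. Nes, the intermediate filament nestin of synapses and precursors, was 2.22-fold lower (limma adjusted p = 0.00394). With it, 3 of 10 tested intermediate filament genes were lower and none higher, 30% against 2.19% of all genes.

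Regulators of calcium and potassium currents were among the largest falls. Rrad, a small GTPase of the RGK family that restrains calcium channels of the surface membrane, had the largest difference of all, with signals of 27446, 44256 and 29089 in control and 926, 2963 and 1332 in mutant muscle. The highest mutant array was still far below the lowest control array. The difference was 21.1-fold (log2 -4.40 ± 0.59 SE, limma adjusted p = 0.00196), and the innervated level lay within the trp range in all 5 arrays. Pln, phospholamban, which inhibits the calcium pump of the sarcoplasmic reticulum, read 7679.6, 11373 and 12592 against 1265, 2120.4 and 2314. Control and mutant ranges are separate, and the fold was 5.58 (limma adjusted p = 0.000174), and its other 2 probe sets differed by -2.34 and -2.32 log2 units. Of 33 calcium channel and calcium handling genes 2 were lower, Rrad and Pln, and 1 was higher, the sodium-calcium exchanger Slc8a3 (log2 1.07, limma adjusted p = 0.00442). In this list 9.09% passed, against 2.19% of all genes, and the median was -0.06.

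Kcnk5, a leak potassium channel, read 3305, 2554 and 2752 in control and 787, 492 and 310.1 in mutant muscle. The mutant arrays lie far below the control arrays, and the difference was 5.62-fold (log2 -2.49 ± 0.38 SE, limma adjusted p = 0.00412). Of 21 potassium channel genes 2 were lower, Kcnk5 and Kcnq5 (log2 -0.89, limma adjusted p = 0.0195), and none was higher (9.52% against 2.19% of all genes). In the list of sodium channels, the chloride channel and the sodium pump (20% called against 2.19% of all genes), 2 of 10 were higher and none lower. These were Atp1b1, a beta subunit of the pump (17828, 15548 and 17362 against 24220, 33647 and 33842, 1.79-fold, limma adjusted p = 0.00787), and Scn3b, a beta subunit of sodium channels (2019, 1739 and 1694 against 4196, 3300.1 and 4043, 2.1-fold, limma adjusted p = 0.0177). The median of this list, 0.36, stayed above 0 under the scaling alternatives, down to 0.02 with centring on the hybridisation controls, and 1 gene instead of 2 passed without denervated control 3.

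Mymk, the membrane protein myomaker that fuses myoblasts, read 3067, 1482 and 1141 in control and 338, 107 and 87.3 in mutant muscle, 10.6-fold lower (limma adjusted p = 0.00315). Its mutant mean lies within the trp control range, so the size depends on the background: with a pseudocount of 500 the log2 difference was -1.76 instead of -3.40. Mymx, the second fusion protein, read 977, 601 and 929 against 27.8, 46.3 and 284 with no overlap and a mutant mean in the trp range, and did not pass (log2 -3.16, limma adjusted p = 0.161). Itga7, the laminin-binding integrin alpha 7 of fibres and precursors, was 2.44-fold lower (limma adjusted p = 0.00072). Of 27 satellite cell and myoblast genes, Mymk and Itga7 were lower and the Notch ligand Dll1 was higher (log2 0.99, limma adjusted p = 0.0314). This is 11.1% of the list against 2.19% of all genes, and the median of the list was -0.06. Defining markers of satellite cells did not pass, with differences of 0.37 for Pax7, 0.30 for Myf5 and 0.16 for Myod1. The summed log2 level of the list, Mymk and Itga7 included, was 313.1 to 317.1 in control and 305.7 to 306.5 in mutant muscle (exact permutation p = 0.1). Of the 27 differences 11 were above 0 and 16 below, and large falls such as that of Mymk weigh most in a sum. The part of these cells in the result was not tested.

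Rrm2, the small subunit of ribonucleotide reductase, which makes deoxynucleotides, read 9212, 10944 and 11198 in control and 1488, 1240.2 and 1236 in mutant muscle. Both groups are narrow, and the difference was 7.83-fold (log2 -2.97 ± 0.20 SE, limma adjusted p = 1.74e-05), with 2 further probe sets at -3.05 and -2.99. It was the only one of 45 DNA replication and mitosis genes to pass (2.22% against 2.19% of all genes), and Mki67 (0.13), Top2a (0.07) and the large subunit Rrm1 (-0.34) lay near the median of the list, 0.02. Aif1l, an actin-bundling relative of a macrophage protein, read 16854, 15516 and 15736 against 1756, 1829 and 1812. Its standard error was the smallest of the 15 largest falls (8.84-fold, log2 -3.14 ± 0.15 SE, limma adjusted p = 8.27e-07), and its other 2 probe sets differed by -3.76 and -4.26, the latter with a mutant mean of 385 in the trp range.

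The remaining large falls were Sh3rf1, Nptx1, Enpp3 and Otud1. Sh3rf1, a scaffold and ubiquitin ligase of the JNK pathway, read 3239.6, 5520.2 and 2631 in control and 574, 808 and 326 in mutant muscle (6.59-fold, limma adjusted p = 0.00105). Enpp3, an ectoenzyme that cleaves extracellular nucleotides, read 3212, 4223 and 4450.3 against 498, 717 and 617 (6.35-fold, limma adjusted p = 0.000172). The mutant arrays of both genes lay near the level of innervated muscle, 576, 418 and 549 for Sh3rf1 and 590.3, 1147 and 1064 for Enpp3 in innervated control arrays. Otud1, a deubiquitinase, read 25236, 26036 and 12888 against 2406, 2953 and 6182 (5.75-fold, limma adjusted p = 0.00149). Nptx1, a neuronal pentraxin, read 744, 550.0 and 531 against 164, 78.1 and 34.6 (6.5-fold, limma adjusted p = 0.0201). Its mutant mean is within the trp range, it had a log2 difference of -0.90 with a pseudocount of 500, and it passed without just 1 of the 6 arrays, denervated mutant 1.

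Secreted acute-phase proteins led the rises. Lcn2, lipocalin-2, which binds bacterial siderophores, read 693, 524 and 1624 in control and 8056, 9034 and 6169.8 in mutant muscle. Denervated control 3 is the highest control array and still well below the mutant arrays, and the difference was 8.96-fold (log2 3.16 ± 0.40 SE, limma adjusted p = 0.00125). Orm2, an orosomucoid, read 2905, 5354 and 3267 against 33250, 19056 and 31663 (7.31-fold, limma adjusted p = 0.00264), and its relative Orm1 807, 2091 and 1395 against 13438, 9643 and 10823 (8.32-fold, limma adjusted p = 0.0321). The Orm genes are near-identical copies, so their probe sets may share RNA, and Orm1 lost its call whichever denervated array was left out. Of 36 cytokine, chemokine and acute-phase genes 5 were higher and none lower, 13.9% against 2.19% of all genes. The others of the 5 were Cxcl14 (log2 0.74) and the macrophage growth factor Csf1 (log2 1.16). Other probe sets of Csf1, at 0.59, 0.16 and 0.57, and of Cxcl14, at 0.72, did not pass. The list had a median of 0.26, which turned to -0.08 with centring on the hybridisation controls. Saa3 (1.08) and Ccl2 (1.63), both with a control mean in the trp range, and Cxcl10 (-1.08) did not pass.

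Markers of white blood cells were compared over the same arrays. Granulocyte markers, which include Lcn2, summed to log2 levels of 79.9 to 89.3 in control and 88.6 to 94.9 in mutant muscle (9 of 18 genes tested, exact permutation p = 0.2). Among them S100a9, Ngp, Prtn3 and Mmp8 had mean signals within the trp control range, and S100a8 read 7034, 8483 and 15583 against 21666, 24116 and 16480 without passing (limma adjusted p = 0.11). Lcn2 was the 1 of these 9 markers that passed, 11.1% against 2.19% of all genes, and 2 passed without denervated control 3. For 4 of the 9 the mutant arrays lay above all control arrays and for none below, against 23.1% of all genes in either direction. The median of the list was 0.65 and stayed above 0 under the scaling alternatives, down to 0.31 with centring on the hybridisation controls. Macrophage markers summed to 420.9 to 439.7 in control and 432.6 to 448.5 in mutant muscle (39 of 45 genes, exact permutation p = 0.5), and 1 of the 39 passed (2.56% against 2.19% of all genes). This was Gpnmb, a glycoprotein of lysosomes and macrophages, which read 4969.7, 5107 and 5180.1 against 16822, 22144 and 20349 (3.85-fold, log2 1.95 ± 0.17 SE, limma adjusted p = 7.68e-05). Adgre1 (-0.10), Csf1r (0.06) and Cd68 (0.57) did not pass. Blnk, an adaptor of B cell signalling listed among lymphocyte and mast cell markers, read 13205, 13906 and 15777 against 47452, 44530 and 46447 (3.23-fold, limma adjusted p = 2.21e-05), and the other 8 tested markers of that list did not pass. Lymphocyte and mast cell markers, Blnk included, summed to 86.7 to 91.4 in control and 91.5 to 92.2 in mutant muscle (exact permutation p = 0.1). The part of these cells in the rises was not tested.

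**Figure D3:**
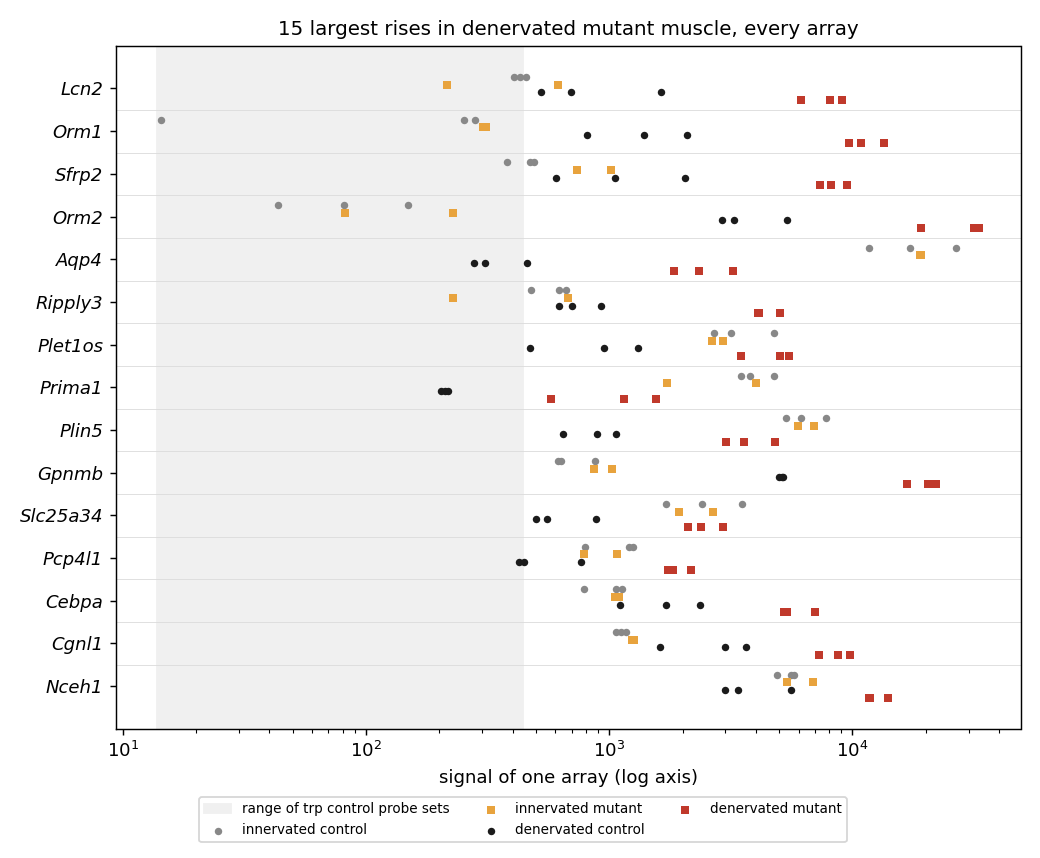
Signal of every array (horizontal axis, log scale) for the 15 genes with the largest rises in denervated mutant against denervated control muscle. Symbols and the band are as in the plot of the largest falls. The 3 red squares lie right of the 3 black circles for each gene, which the choice of genes required. For Aqp4, Prima1 and Plin5 the innervated arrays lie further right still.

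Some genes of lipid droplets and fat oxidation were higher in denervated mutant muscle. Plin5, a perilipin that ties lipid droplets to mitochondria, read 889, 642 and 1070.3 in control and 3022, 3589 and 4816 in mutant muscle (4.34-fold, log2 2.12 ± 0.22 SE, limma adjusted p = 0.000334). Ppara, the nuclear receptor that drives fat oxidation genes, read 1279.5, 862 and 1176 against 2336, 2337 and 3825 (2.5-fold, limma adjusted p = 0.00606). Plin4, a perilipin also counted as an adipocyte marker, read 8790.2, 6449 and 9448 against 23103, 18334 and 26278 (2.75-fold, limma adjusted p = 0.0012). For all 3 genes the mean of denervated mutant muscle lay between those of denervated control and of innervated muscle, whose control arrays read 6154, 5331 and 7809 for Plin5 and 7062, 6661 and 8315 for Ppara. Adipoq, the defining adipocyte gene of the list, differed by 0.20 (limma adjusted p = 0.95), and adipocyte markers summed to 111.7 to 120.9 in control and 115 to 121.5 in mutant muscle (exact permutation p = 0.5).

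Of 38 genes of fatty acid uptake and oxidation 4 were higher (Plin5, Ppara, the thioesterase Acot2 and the lipoprotein lipase Lpl) and 1 was lower, 13.2% against 2.19% of all genes, and 33 of the 38 differences were above 0. The median was 0.34, and it fell to -0.004 with centring on the hybridisation controls. Without denervated control 3 the counts were 3 higher and 2 lower. Plin5 and Ppara passed whichever denervated array was left out, Acot2 passed in 1 of 6 such fits and Lpl in none. The lower gene was Perm1, a muscle regulator of mitochondrial genes, with 728, 603 and 399 in control and 141, 216 and 139 in mutant muscle (3.24-fold, limma adjusted p = 0.00268). Its mutant arrays lie within the trp range, and the call was lost with a pseudocount of 500 and with the 6 denervated arrays alone. None of 51 respiratory chain genes passed (median 0.09), none of 32 glycolysis and glycogen genes (median 0.02) and 1 of 24 citrate cycle genes, Idh1 (log2 0.97, limma adjusted p = 0.0101), an isocitrate dehydrogenase outside the mitochondria. That is 4.17% of the citrate cycle genes, against 2.19% of all genes.

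Aqp4 and Prima1, membrane proteins of the mature fibre, were also higher. Aqp4, the water channel of the fast fibre membrane, read 309, 460.1 and 277 in control and 3238, 2335 and 1847 in mutant muscle. The ranges do not meet, and both lie far below innervated muscle, 17249, 26732 and 11690 in control and 19084 and 18999 in mutant arrays. The fold was 6.8 (log2 2.77 ± 0.29 SE, limma adjusted p = 0.000284), and since the control mean is within the trp range the log2 difference was smaller, 1.79, with a pseudocount of 500. Prima1, the anchor that holds acetylcholinesterase in membranes, read 212, 202 and 217 against 1144, 576 and 1563 (4.54-fold, limma adjusted p = 0.00549), with a control mean in the trp range and a log2 difference of 1.12 at that pseudocount. In the list of dystrophin complex genes Aqp4 and Nos1, the neuronal nitric oxide synthase of the fibre membrane, were higher (Nos1 1.71-fold, limma adjusted p = 0.0314). Dtna, alpha-dystrobrevin of the complex and the synapse, was lower (1.99-fold, limma adjusted p = 0.00842). With these 3, 20% of the 15 tested passed, against 2.19% of all genes. Dmd, dystrophin itself, differed by -0.04 (limma adjusted p = 0.97). Nos1 lost its call in the absence of 5 of the 6 denervated arrays.

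The other large rises have varied roles. Sfrp2, a secreted antagonist of Wnt ligands, read 601, 1055 and 2044 in control and 8167, 9475 and 7347 in mutant muscle (7.49-fold, limma adjusted p = 0.00064), with denervated control 3 the highest control array. Cebpa, a transcription factor of fat and myeloid cell differentiation, read 1107, 1707 and 2358 against 7014, 5231 and 5388 (3.51-fold, limma adjusted p = 0.00217). No array of these genes crossed into the other genotype's range, which the choice of the largest rises required. Nceh1, a cholesterol ester hydrolase, was 3.24-fold, Cgnl1, a junction protein, 3.27-fold, Slc25a34, a mitochondrial carrier, 3.85-fold and Pcp4l1, a relative of a calmodulin regulator, 3.54-fold higher (limma adjusted p from 0.00105 to 0.00275). Plet1os, annotated as a transcript opposite Plet1, was 5.37-fold higher (limma adjusted p = 0.00182). All of these 7 genes passed whichever denervated array was left out.

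Pathways of protein breakdown and growth changed in few members. Among 30 ubiquitin ligase and FoxO atrophy genes Fbxo31 and Tgif1 were higher and Sesn1 was lower, 10% against 2.19% of all genes. The median of the list, 0.23, turned to -0.11 with centring on the hybridisation controls. Without denervated control 3, 1 was higher and none lower. Fbxo32, atrogin-1, read 91358, 82672 and 85195 in control and 103700, 106130 and 125570 in mutant muscle (log2 0.37, limma adjusted p = 0.429), and Trim63, MuRF1, differed by 0.15 (limma adjusted p = 0.764). Both ligases, which mark atrophy, were bright in both genotypes. Their mutant arrays lay above the control arrays, while arrays do not overlap, in either direction, for 23.1% of all genes. None of 37 proteasome subunits passed (median 0.07), 1 of 45 autophagy genes did (Trp53inp1, log2 1.08, limma adjusted p = 0.0261, list median -0.02), and 1 of 37 lysosomal genes (Lgmn, an asparagine-specific protease, log2 0.58, limma adjusted p = 0.0471). These shares, 2.22% of the autophagy and 2.7% of the lysosomal genes, were near the 2.19% of all genes. The autophagy gene Map1lc3b did not pass by its brightest probe set. Another of its probe sets passed as higher (log2 0.52, limma adjusted p = 0.0281), and others at 0.27 and 0.54 did not. Lysosomal differences were above 0 in 31 of 37 genes with a median of 0.20, which became -0.14 with centring on the hybridisation controls, and neither Trp53inp1 nor Lgmn passed without denervated control 3. Of 23 calpain, caspase and BCL2 family genes, Casp12 (2.4-fold) and Casp4 (2.76-fold, limma adjusted p = 0.043) were higher and none lower, 8.7% against 2.19% of all genes. Casp4, whose control mean is in the trp range, lost its call whichever array was left out.

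Signalling genes moved in both directions. Among 30 IGF, Akt and mTOR genes, the insulin receptor substrate Irs1 (2.02-fold, limma adjusted p = 0.0234), the kinase Mtor (1.58-fold, limma adjusted p = 0.0169) and its partner Rptor (1.5-fold, limma adjusted p = 0.0362) were lower. The kinase Akt1 was 1.45-fold higher (limma adjusted p = 0.0406), and the list, with 13.3% called against 2.19% of all genes, had a median of 0.02. Another probe set of Mtor differed by -0.16, and others of Akt1 by 0.57 and -0.13, none of which passed. None of the lower genes of this list passed without denervated control 3. Their arrays do not overlap, which holds for every called gene (Mtor 16162, 14708 and 16775 against 10461, 9251 and 10361). Of 22 heat shock genes Hspa1b, Hspa1a, Hspb3 and Dnajb4 were lower and none higher, 18.2% against 2.19% of all genes. The median of the list was -0.14. None of these 4 passed without denervated control 3, where 1 other member of the list did. Hspa1a and Hspa1b are near-identical copies whose probe sets may share RNA. None of 35 BMP, TGF-beta and myostatin genes, 28 unfolded protein response genes, 32 interferon-response genes, 18 Schwann cell genes or 17 clock genes passed. Among 34 myogenic and activity-responsive transcription factors Hdac4, a repressor of MEF2 targets, was higher (15581, 18971 and 21717 against 37594, 29732 and 33149, limma adjusted p = 0.0101), and Myog, which drives the receptor genes of denervated muscle, read 96626, 97362 and 60644 against 64499, 68359 and 73773 with overlapping arrays. With Hdac4 alone, 2.94% of this list passed, against 2.19% of all genes. None of 14 RUNX factors, partners and co-repressors passed, among them the partner Cbfb (0.15).

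Few fibroblast, endothelial and Schwann cell genes passed, 3.77%, 4% and 0% of the lists against 2.19% of all genes. The share was 11.1% for granulocyte markers and for lymphocyte and mast cell markers and 10% for adipocyte markers, from 1 gene each. Of 53 fibroblast and extracellular matrix genes, Timp2, an inhibitor of matrix proteases, was 1.53-fold higher (limma adjusted p = 0.0382) and Ccn1, a matrix signalling protein, 2.43-fold lower (limma adjusted p = 0.0122). Timp2 lost its call whichever denervated array was left out. Of 25 endothelial genes, Angpt1, a ligand of the TIE2 receptor, was 2.09-fold lower (limma adjusted p = 0.00809). A second probe set of Angpt1, with both means in the trp range, differed by 0.28 in the other direction and did not pass. The call was lost with a replicate block in the 6 denervated arrays alone (limma adjusted p = 0.0967). The summed log2 levels overlapped between the genotypes, with 652.2 to 679.5 in control and 647 to 677 in mutant muscle for fibroblast genes (exact permutation p = 1), 289.9 to 290.1 and 289.3 to 292.8 for endothelial genes (exact permutation p = 0.5), and 175.9 to 180.9 and 176.7 to 180.7 for Schwann cell genes (exact permutation p = 0.9). Of 16 organisers of the neuromuscular synapse Dtna was the one that passed (6.25% against 2.19% of all genes, median 0.11), and of 25 p53 targets Trp53inp1 was higher and Sesn1 lower (8% against 2.19% of all genes). None of 8 polyamine genes, 10 genes of energy transfer and the creatine kinase locus, and the 1 tested erythroid gene passed.

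Several of the calls just given from the lists depended on the scaling or on single arrays. Centring on the hybridisation controls ended the calls of Atp1b1, Scn3b, Slc8a3, Nos1, Casp12, Casp4, Cxcl14, Csf1, Dll1, Fbxo31, Tgif1, Hdac4, Idh1, Acot2, Lpl, Akt1, Lgmn, Timp2 and Trp53inp1, all of them higher in the mutant. Scaling to the median ended those of Dnajb4, Hspb3, Irs1, Mtor, Rptor, Sesn1, Myh10, Pdlim3 and Smyd1, which were lower, and of Akt1. When 1 of the 6 denervated arrays was left out, Akt1, Dll1, Hspa1a, Hspb3, Dnajb4, Mtor, Pdlim3, Scn3b, Sesn1 and Trp53inp1 passed in 1 of 6 fits, Irs1, Fhl1 and Kbtbd13 in 2, Kcnq5, Cxcl14, Csf1, Casp12 and Hdac4 in 3, Atp1b1, Dtna, Fbxo31 and Idh1 in 4 and Ccn1 in 5, while Hspa1b, Lgmn, Rptor, Smyd1 and Tgif1 passed in none.

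**Figure D4:**
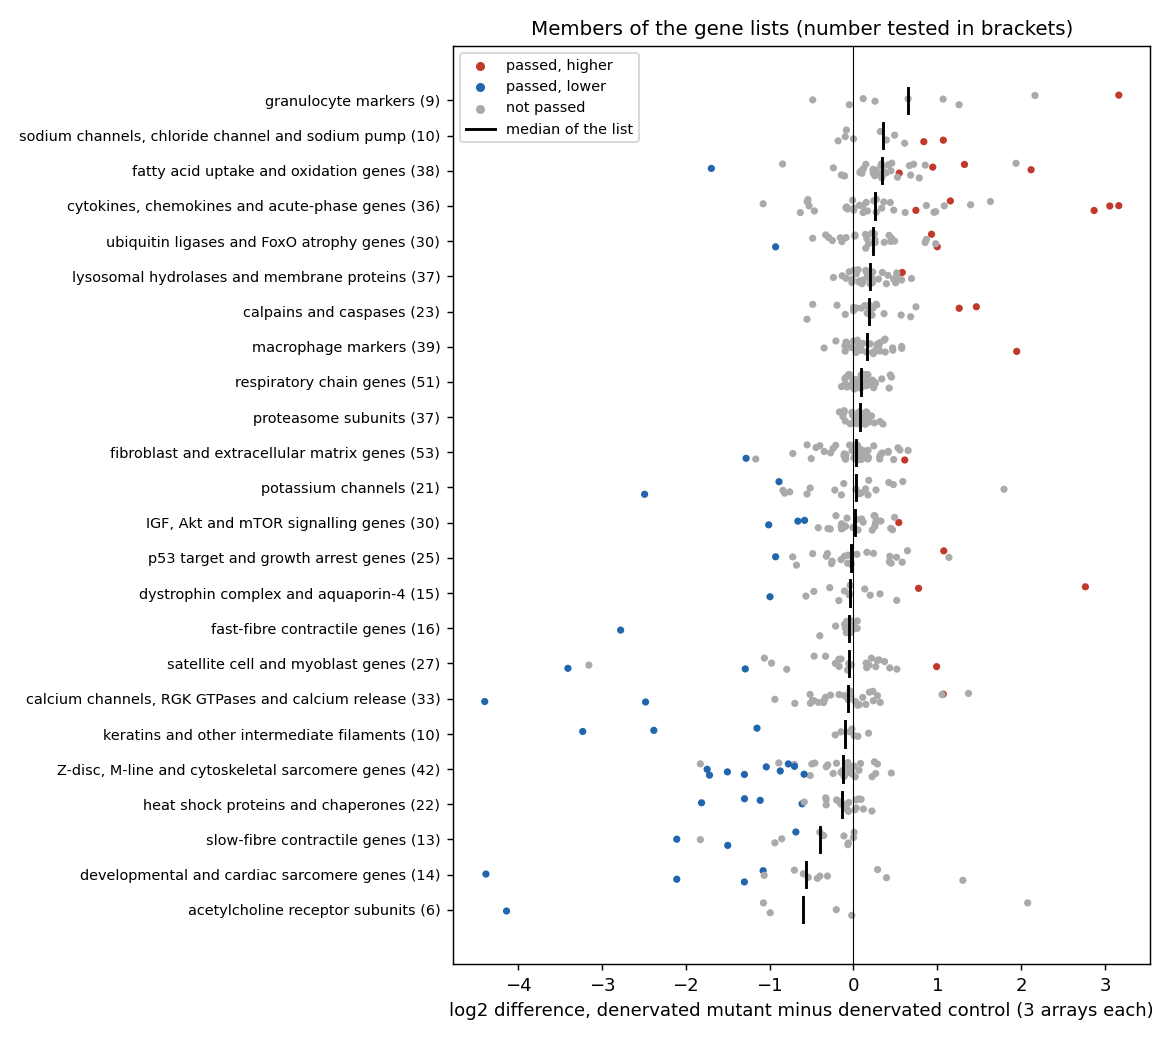
Log2 difference between denervated mutant and denervated control muscle (horizontal axis) of each tested gene of 24 gene lists, with the number tested in brackets. Red and blue points passed as higher or lower, grey points did not, black bars are list medians, and points are spread vertically to be visible. Developmental sarcomere and slow-fibre genes lie mostly left of 0, while fatty acid genes lie mostly right of it, with Perm1 furthest left.

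The same probe sets were compared in innervated muscle, which shares no array with the comparison above. With limma 0 of the 12214 genes and 0 of the 26170 probe sets passed there (0%). An unadjusted p below 0.05 was found for 461 genes (3.77%) and 1030 probe sets (3.94%), and without the trend in the variances 3 probe sets passed. The genes lower in denervated mutant muscle had a median difference of -1.05 log2 units there and -0.06 in innervated muscle, and the higher genes 0.99 and -0.02. Of the 267 genes, 139 had the same sign in both. Across all genes the differences in denervated and innervated muscle correlated with r = 0.02, and across the 267 genes with r = 0.14; these are descriptions over genes, which are not independent replicates. For the 15 largest falls the innervated differences lay between -0.96 (Kcnk5) and 1.13 (Nptx1), and for the 15 largest rises between -0.60 (Prima1) and 1.26 (Orm1). The interaction asks whether the genotype difference itself differs between denervated and innervated muscle, and it shares the denervated arrays. It passed for 32 genes (0.262%), 15 with a positive (0.123%) and 17 with a negative value (0.139%), or 65 probe sets (0.248%).

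The genes that neighbour Runx1 on chromosome 16 were also described. In the gene order of GRCm38.p6, 4 of the 20 nearest tested genes, 10 on each side, differed in denervated muscle (20%), against 2.19% of all genes and 3.04% of chromosome 16 (12 of 395). Within 30 places there were 6 of 58 (10.3%). Ripply3, a transcriptional co-repressor 8 places from Runx1, read 923, 702 and 622 in denervated control and 4113, 4076 and 5016 in denervated mutant muscle (5.83-fold, log2 2.54 ± 0.32 SE, limma adjusted p = 0.00125). It was the largest rise of the region, with mutant arrays close together, and in innervated muscle it read 664, 623 and 475 in control and 227 and 678 in mutant arrays. Hlcs, the enzyme that attaches biotin, was 1.75-fold, Dop1b, a membrane traffic protein, 1.67-fold, Bace2, an aspartic protease, 2.6-fold and Il10rb, a receptor of interleukin-10, 2.27-fold higher (limma adjusted p from 0.00475 to 0.0208). Rcan1, the calcineurin inhibitor 2 places away, was 1.81-fold lower (limma adjusted p = 0.0136). Ripply3, Bace2 and Il10rb passed whichever denervated array was left out, Dop1b in 5, Rcan1 in 3 and Hlcs in 1 of 6 such fits. Centring on the hybridisation controls ended the calls of Hlcs, Dop1b, Bace2 and Il10rb, and scaling to the median that of Rcan1. The innervated differences of the 6 genes ranged from -0.54 to 0.07, and none passed. By their labels both genotypes carry the same floxed and null alleles of Runx1. The labels do not describe the sequence around these alleles, and the cause of the differences near Runx1 was not tested.

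**Figure D5:**
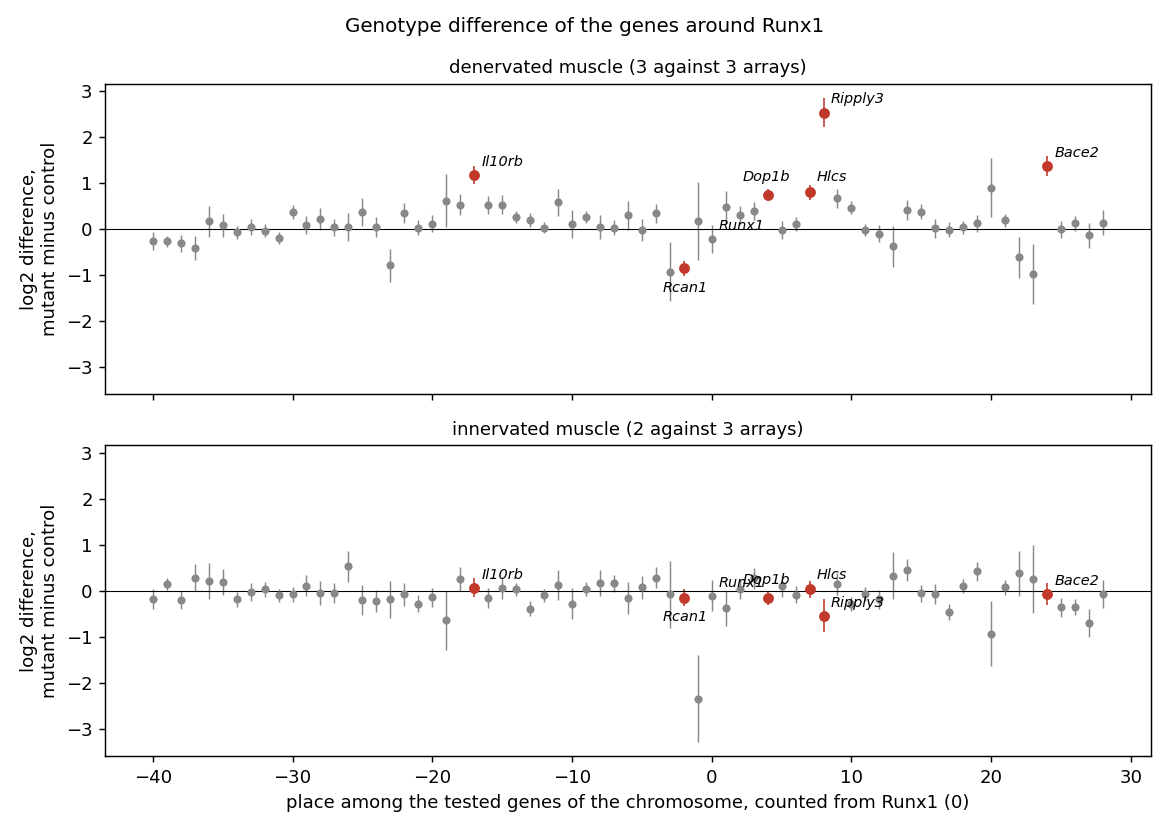
Log2 difference between mutant and control (vertical axis, bars are standard errors of the fit) for the tested genes around Runx1, by their place in gene order (horizontal axis), in denervated (top) and innervated muscle (bottom). Red points are the 6 genes that passed in denervated muscle. In innervated muscle the same genes lie near 0, apart from Ripply3 at -0.54.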

How the data were processed

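Affymetrix arrays measured RNA of 11 tibialis anterior muscles in 4 groups named by the sample titles. The values are probe set intensities as deposited by the authors; per the file headers and labels they are signals, and all arrays share 1 trimmed mean (2% at each end), while the program behind them is not given in the sources. Signals were taken as log2(signal + 16), 64 AFFX control probe sets were left out, and a probe set was tested where at least 2 arrays read it above the median of that array. limma 3.58.1 in R 4.3.3 fitted 1 mean per group over all 11 arrays, with eBayes, a variance trend and Benjamini-Hochberg adjustment over 26170 probe sets, and was tested on simulated data. Log2 differences understate those of dim genes. The brightest tested probe set stood for a gene. Symbols came from the platform annotation: 34958 probe sets have 1 symbol, 932 several and 9211 none, and the last 2 kinds were not named. The named genes are the 15 largest falls and rises among called genes whose arrays do not overlap and whose higher mean exceeds the trp controls, and up to 3 members per list by smallest p. Others, such as Pax7, Ttn, Adgre1 or the neighbours of Runx1, were added after values were seen. The comparison and the 42 gene lists were chosen with earlier results of these data known. Equal replicate numbers did not pair the arrays. The number of arrays limits the precision.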

Additional observations from a re-analysis of the deposited data

Results flagged for a closer look

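For 21 of the 133 named genes the genotype difference itself differed between denervated and innervated muscle (limma, interaction with adjusted p below 0.05 over all probe sets). The interaction is the denervated minus the innervated log2 difference between mutant and control, and it shares the denervated arrays with the comparison above. Over all genes tested it passed for 32 (0.262%). The named genes were chosen mostly by the size or p-value of their denervated difference, so a larger share among them was built in. No explanation was tested.

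Among the falls the interaction was -4.89 ± 0.89 (SE) for Rrad, -3.87 ± 0.46 for Chrng and -3.86 ± 0.46 for Myh3, the embryonic myosin (limma adjusted p from 0.00603 to 0.0452). In these 3 genes denervation went with log2 differences of 8.43, 6.86 and 3.44 in control and 3.55, 2.99 and -0.42 in mutant muscle, contrasts that share arrays. The value was -3.44 for Sh3rf1, -3.16 for Aif1l, -2.71 for Enpp3, -2.69 for Pln, -2.42 for Rrm2 and -2.31 for the keratin Krt18. Sarcomere genes with a negative value were Myh2 (-2.41), Lmod3 (-1.75) and Synpo2l (-1.59). For Myh2 the log2 difference with denervation was -1.37 in control and -3.78 in mutant muscle.

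Among the rises the interaction was 3.39 ± 0.60 for Lcn2, 3.08 ± 0.48 for Ripply3, 2.73 for Plet1os and 2.65 for Aqp4. Lipid genes had 2.09 (Plin5), 1.86 (Plin4) and 1.84 (Ppara). The value was 1.70 for the adaptor Blnk and 1.52 for Gpnmb. Denervated minus innervated muscle, the log2 differences of Aqp4 and Plin5 were -5.62 and -2.88 in control and -2.97 and -0.79 in mutant muscle. The innervated mutant group has 2 arrays, and the number of probe sets with an interaction ranged from 16 to 108 when 1 array was left out.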

How the results depend on the processing

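The 478 probe sets called in denervated muscle (211 higher, 267 lower) became 736 (42 higher, 694 lower) with centring on the hybridisation controls, in which cre was left out because the transgene encodes Cre, 279 (119 higher, 160 lower) without the variance trend and 857 (399 higher, 458 lower) with array weights. Called genes became 152 without the trend and 485 with array weights. Leaving out 1 array gave 223 (without denervated control 1) to 471 probe sets, 91 to 238 higher and 132 to 233 lower, and 126 to 261 genes (157 without denervated control 2, 151, 140 and 145 without denervated mutant 1, 2 and 3). The difference of Runx1 then lay between -0.27 and -0.17. For the interaction, 65 probe sets became 10 without the trend and 16 to 108 with 1 array left out, and for innervated muscle 0 became 3 without the trend and 0 to 12. The cause was not tested. Pseudocounts of 1, 64 and 500, filters, quantile normalization, median scaling, the 6 denervated arrays alone and the 5'-to-3' covariate kept the count of probe sets within 1.5 times.

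Reversed differences, none of which passed, were those of Psmc5 (-0.022), Psmc1 (-0.17), Suclg1 (-0.13), Alas2 (-0.22) and Adssl1 (-0.18) with centring on the hybridisation controls. Alas2 ranged from -0.16 to 0.34 with 1 array left out. The cause was not tested. Over named genes and alternatives, 178 values lost the call, 51 gained it and 7 changed direction. The others kept their direction and side of the threshold.

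Equal replicate numbers did not pair the arrays, with correlations of -0.10, 0.02 and -0.05. With a replicate block 460 probe sets (201 higher, 259 lower) and 254 genes were called, 45 for the interaction and 0 in innervated muscle, and with the 6 denervated arrays alone 462 (213 higher, 249 lower) and 274 genes.

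Signals near the trp controls limit the size of differences of dim genes.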

Other observations

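Further genes that differed in denervated muscle, chosen after their values were seen, include several of lipid and sterol synthesis. Dgat2, which completes triglyceride synthesis, read 4321, 3548 and 4327 in control and 11663, 12777 and 12145 in mutant muscle (3-fold higher, limma adjusted p = 0.00258), and Fdft1, squalene synthase, read 11615, 10019 and 17219 against 25318, 26386 and 26093 (2.06-fold higher, limma adjusted p = 0.00712). The control and mutant arrays are separate in both, with denervated control 3 the highest control array of Fdft1. Lpin2, a phosphatidate phosphatase, was 1.8-fold higher (limma adjusted p = 0.0136) and Insig1, which holds back sterol synthesis, 1.66-fold (limma adjusted p = 0.0479). Dgat2 and Fdft1 passed whichever denervated array was left out, Lpin2 in 3 and Insig1 in 1 of 6 such fits. Tbx1, a T-box transcription factor, was 1.75-fold higher with narrow groups, 11598, 10869 and 13696 against 20343, 21192 and 21495 (limma adjusted p = 0.00527). Hes1, a target of Notch, read 1282, 2570.2 and 1788 against 4345, 7132 and 3878 (2.72-fold higher, limma adjusted p = 0.0245) and passed in 2 of 6 fits. Centring on the hybridisation controls ended the calls of Fdft1, Lpin2, Insig1, Tbx1 and Hes1, and scaling to the median that of Insig1.

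Regulators of signalling were among the further lower genes. Rgs2, which shortens G protein signals, read 6009, 5735 and 6904 in control and 2054, 2014 and 2053 in mutant muscle (3.02-fold lower, limma adjusted p = 0.000195). Dusp1, a phosphatase of MAP kinases, read 27466, 25504 and 25043 against 7793, 9569 and 10263 (2.84-fold lower, limma adjusted p = 0.000165). Both groups are narrow, and the Rgs2 values of denervated mutant muscle lie close to those of innervated control muscle, 1645, 1929.9 and 1471, while innervated control arrays of Dusp1 were higher than all denervated ones, 46378, 57833 and 43581. Cd82, a tetraspanin, was 2.8-fold, Dclk1, a microtubule-associated kinase, 4.02-fold, Asb15, a muscle protein with ankyrin repeats, 4.76-fold and Itgb6, an integrin beta subunit, 4.77-fold lower (limma adjusted p from 7.68e-05 to 0.00179). All 6 passed whichever denervated array was left out. Of the called genes, 166 of 267 have other tested probe sets, and 279 of these 295 probe sets had the same sign, 94 passed in the same direction and none in the opposite one.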
